A study of Mus musculus with 11 samples.

Results

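The genes described here encode metallothioneins, enzymes of glutathione synthesis and use, peroxiredoxins, thioredoxins, glutaredoxins, methionine sulfoxide reductases, superoxide dismutases, catalase and heme oxygenases, together with the regulator Nfe2l2. They were chosen by gene symbol alone, from the annotation of the arrays, as genes of families whose names begin with Gst (classes a, m, o, p, t, z and k), Gpx, Prdx, Txnrd, Glrx, Gcl or Msr, and as a list of single genes. The choice found 32 genes of the 8146 named genes on the arrays, and all 32 had enough values to be tested. Of these, 25 were printed as 1 spot and 7 as 2 or more spots, 41 spots in all. Gsr, Keap1, Nqo1 and Sod3 were on the list of single genes but are not among the named spots analysed here, and neither is any thioredoxin reductase (Txnrd) gene. A further 12 spots whose annotation joins several symbols, 5 of them with 4 Gstm symbols each, were not used.

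RNA came from the right and left ventricles and septum of 12 male C57/BL6 mice of about 60 weeks from the TG1306/1R line, which overexpresses angiotensinogen (Agt), the precursor of angiotensin II, in the heart. The 3 groups were 4 wild-type mice without the transgene (-/-, WT), 4 heterozygous carriers (+/-) with hypertrophic hearts (Hyp) and 4 heterozygous carriers with dilated hearts (Dil). The labels name no treatment. Each carrier group is defined by its heart as well as its genotype: the labels state that hearts were selected by genotype, chamber shape, cardiac weight index and the expression of hypertrophic markers. The cardiac weight index was 4.2 to 4.9 mg/g in WT, 5.3 to 5.8 mg/g in Hyp and 7.8 to 9.2 mg/g in Dil mice. The Hyp mouse of set 3 is given as 5.3 mg/g on one array and 5.6 mg/g on another. Each cDNA array compared 2 mice of a set, that is 1 WT, 1 Hyp and 1 Dil mouse with the same number, labelled with Cy3 and Cy5. There were 4 arrays of WT and Hyp, 4 of Hyp and Dil and 3 of WT and Dil. The 11 arrays include none of WT and Dil of set 2.

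Metallothioneins are small cysteine-rich proteins that bind zinc and copper and can scavenge oxidants, and their genes are switched on by metals, glucocorticoids and inflammatory signals. Superoxide dismutases convert superoxide to hydrogen peroxide, which catalase, glutathione peroxidases and peroxiredoxins then remove, drawing on glutathione and thioredoxin for electrons. Glutathione transferases join glutathione to reactive molecules, and many of these genes are targets of NRF2, the product of Nfe2l2, which is known in heart muscle as a regulator of the response to oxidants.

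Values are log2 ratios of the dyes, turned so that a positive value means a higher level in the second-named state of the heart (Hyp over WT, Dil over WT or Dil over Hyp). No source used here states which dye is the numerator, so the direction is only likely. It rests on Nppb, a natriuretic peptide gene of strained hearts (1.02 ± 0.30 in Hyp minus WT and 2.53 ± 0.32 in Dil minus WT), and on Agt (2.09 ± 0.40 and 2.15 ± 0.40), which came out higher in carriers. With the opposite direction all signs below would turn. Changes are given as the fitted log2 change ± its standard error over the 4 mice of each group, from 1 linear model over the 11 arrays with a dye term and limma's moderation. P-values were adjusted by the Benjamini-Hochberg method over all 12097 features tested, with a threshold of 0.05. A value for a set of mice is the difference within that set after the fitted dye effect is subtracted. All 11 arrays contributed, but on the array of WT and Hyp of set 1 the deposited column was displaced against the spot order. Its rows were moved back, which left 26 of the 32 genes with a value there, and Gstm4, Gstm5, Gstm7, Gpx3, Gpx4 and Msrb1 without one. Because whole ventricle was measured, fewer cells of a type and less RNA per cell cannot be told apart.

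The upstream sequences of the metallothionein genes are shown first because Mt2 had the largest change among the 32 genes in Dil minus WT. Mt2 and Mt1 are neighbours on mouse chromosome 8. The windows hold the 250 bases that end just before each gene's RefSeq start on the plus strand of GRCm38.p6, at chr8:94172368-94172617 for Mt2 and chr8:94178839-94179088 for Mt1. Capitals mark the letters TGCACNC or TGCGCNC on either strand, the core of the metal response element that the zinc-sensing factor MTF1 binds.
Mt2: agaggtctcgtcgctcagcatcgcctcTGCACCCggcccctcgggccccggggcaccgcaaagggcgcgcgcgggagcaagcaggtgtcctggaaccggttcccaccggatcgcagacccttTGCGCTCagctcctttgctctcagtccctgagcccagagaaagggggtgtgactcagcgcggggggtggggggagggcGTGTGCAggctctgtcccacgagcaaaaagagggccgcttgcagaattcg
Mt1: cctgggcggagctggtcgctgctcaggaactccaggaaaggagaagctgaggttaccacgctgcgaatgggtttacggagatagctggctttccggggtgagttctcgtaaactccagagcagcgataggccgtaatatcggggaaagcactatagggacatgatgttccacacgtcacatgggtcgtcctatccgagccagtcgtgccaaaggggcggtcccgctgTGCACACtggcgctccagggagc
The Mt2 window holds 3 such words and the Mt1 window 1. These letters are common: they occur in 21.41% of the 32851 mouse promoter windows of this length and in 9 of the 36 windows of the genes described here. Some genes have several windows, and those 9 belong to 7 of the 28 genes that have one (Glrx, Gstm4, Gstm5, Mt1, Mt2, Prdx4 and Txnip). The word TGACNNNGC, the core of the antioxidant response element through which NRF2 acts, was searched on both strands as well. It occurs in 10.16% of all windows and in 6 of the 36 windows of these genes. The 6 genes of 28 with this word are Gstm5, Gstm7, Mt2, Nfe2l2, Prdx1 and Sod1. In the Mt2 window it overlaps 0 of the metal response words. Gclc, Gsta4, Hmox1 and Msra had no window in the RefSeq table. A match is a description of the sequence and not evidence of binding. Only the 250 bases before the listed start were searched. Words after that start or further upstream are not counted, so the counts of Mt1 and Mt2 depend on where the start is listed.

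Dilated and WT hearts were compared to find which of these genes differ in the enlarged heart of the carrier. Mt2 was higher and Gstm7, a mu-class glutathione transferase, was lower in dilated hearts, and the other 30 genes did not pass the test. The 2 genes called of 32 stand beside 2.15% of all features called in this comparison (1% higher and 1.15% lower). At an unadjusted p under 0.05 there were 5 genes on the higher side (Mt1, Mt2, Nfe2l2, Gsto1 and Gpx1) and 6 on the lower side (Gsta4, Gstm5, Gstm7, Glrx5, Sod1 and Sod2), beside 16.2% of all features (8.09% higher and 8.15% lower). The genes were divided evenly around 0, with 16 above and 16 below, a median of 0.00 and a range from -0.64 to 1.20, and the median of all features was also 0.00.

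**Figure D1:**
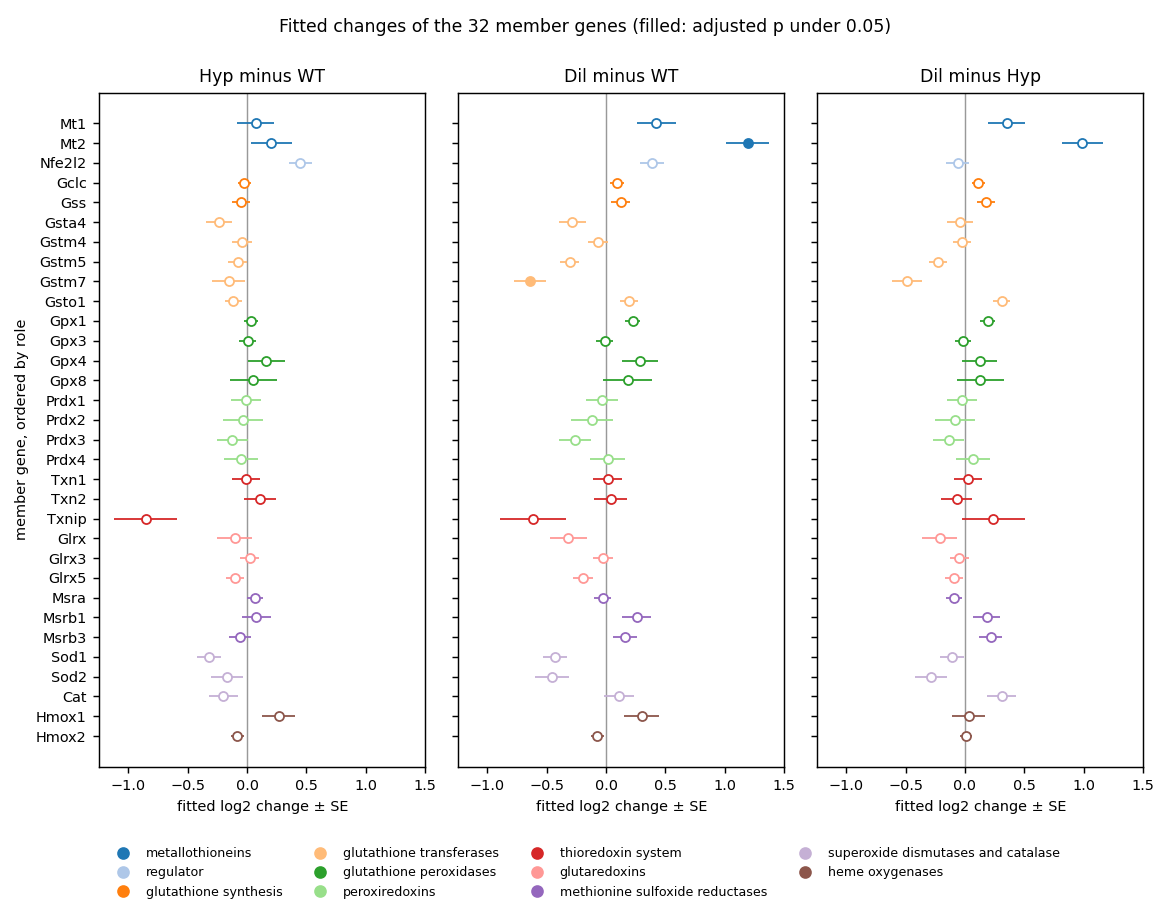
Fitted log2 change (horizontal axis) ± standard error of the 32 antioxidant, glutathione and metallothionein genes (vertical axis, coloured by role) in the 3 comparisons, with filled points where the adjusted p was under 0.05. Mt2 at 1.20 and Gstm7 at -0.64 in Dil minus WT are the 2 filled points, and Txnip at -0.85 in Hyp minus WT is farther from 0 than the other genes of that panel but is not filled.

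Mt2 encodes one of the ubiquitous metallothioneins. On the direct arrays of WT and Dil its log2 ratio was 0.44 in set 1, 1.49 in set 3 and 1.59 in set 4, and on those of Hyp and Dil it was 0.67, 0.30, 1.85 and 1.12 in sets 1 to 4. The 4 arrays of WT and Hyp gave -0.08, 0.41, 0.25 and 0.22. All 7 arrays with a dilated heart were thus above 0, with the values of sets 3 and 4 above those of sets 1 and 2, and the highest array of WT and Hyp lay below the lowest direct array of WT and Dil. The fitted change was 1.20 ± 0.18 in Dil minus WT (2.29-fold, 95% interval 0.79 to 1.60, limma adjusted p = 0.0135), with 0.62, 0.71, 1.70 and 1.51 in sets 1 to 4. In Dil minus Hyp it was 0.99 ± 0.17 (limma adjusted p = 0.0558), just outside the threshold. In Hyp minus WT it was 0.20 ± 0.17 (limma adjusted p = 0.999), with an interval from -0.18 to 0.58. Both spots of Mt2 passed on their own in Dil minus WT, the first at 1.38 ± 0.23 and the second at 1.00 ± 0.16 (limma adjusted p = 0.0178 and 0.0177).

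In Dil minus WT the call of Mt2 was lost without set 3 (0.98, limma adjusted p = 0.232), without set 4 (1.09, limma adjusted p = 0.188), from direct arrays alone (1.28, limma adjusted p = 0.104) and with the replicate block, which reduces each set to 1 value (1.13, limma adjusted p = 0.0964). It held in the other 14 of 18 alternatives. Some of these could not change the fitted value of Mt2, such as the filters on the number of arrays and leaving out an Nfe2l2 spot. The count of 14 is therefore no measure of how firm the call is. In Dil minus Hyp Mt2 passed in 5 alternatives, with an adjusted p from 0.0160 where arrays were scaled to one spread to 0.0493 where a value on all 11 arrays was required. Among the 5 are the displaced column as deposited and arrays taken as independent although they share mice. Another, without the array of Hyp and Dil of set 1, was chosen after the data were seen.

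Mt1 is the second metallothionein gene on the arrays and codes for a closely similar protein. Its direct ratios of WT and Dil were -0.35, 0.90 and 0.59 in sets 1, 3 and 4. The ratios of Hyp and Dil were 0.44, -0.23, 0.72 and 0.49 in sets 1 to 4, and those of WT and Hyp were -0.28, 0.58, 0.06 and -0.06. Of the arrays with a dilated heart, those of sets 3 and 4 were again the highest, but those of the other sets lay on both sides of 0. The fitted change was 0.43 ± 0.16 in Dil minus WT (limma adjusted p = 0.224), 0.35 ± 0.16 in Dil minus Hyp (limma adjusted p = 0.487) and 0.07 ± 0.16 in Hyp minus WT (limma adjusted p = 0.999). The difference between Mt2 and Mt1 was not tested. The spots are cDNA clones, and how far transcripts of one metallothionein gene bind clones of the other is not given in the sources used here.

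**Figure D2:**
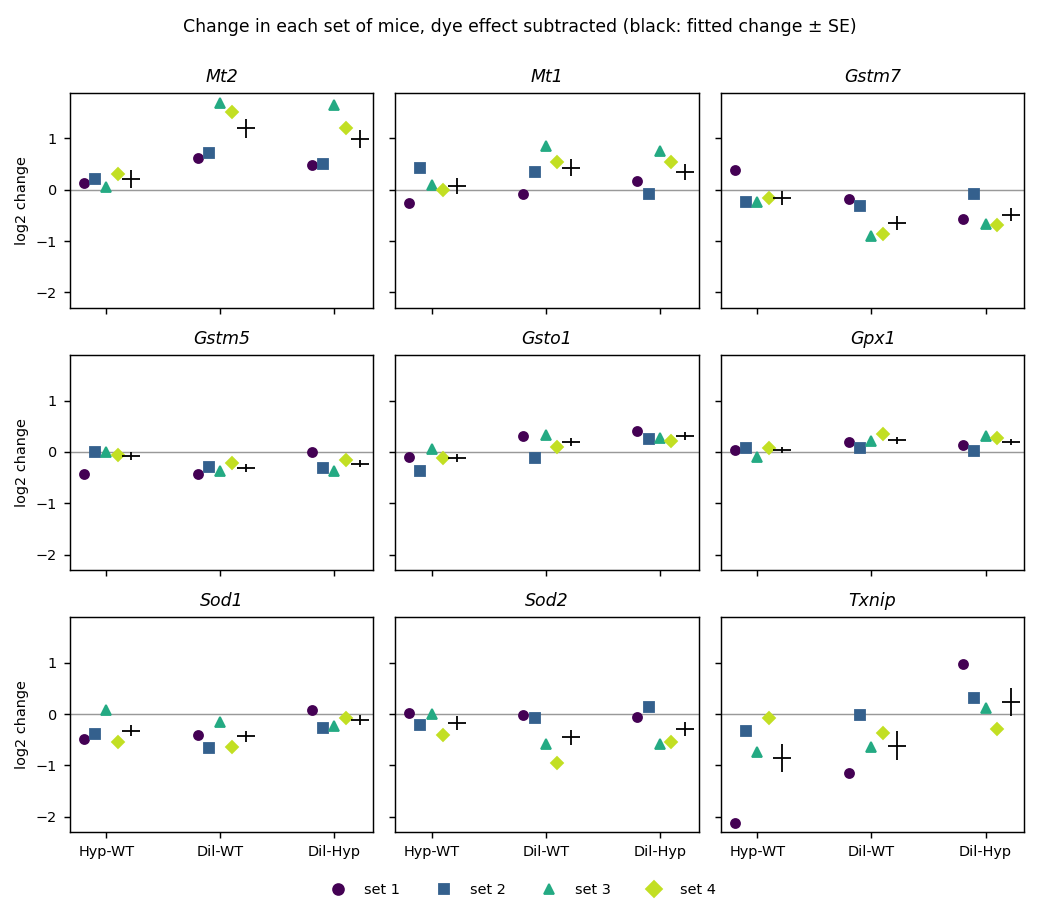
Log2 change (vertical axis) of 9 genes in each of the 4 sets of mice (coloured symbols, dye effect subtracted) and as fitted, with its standard error (black), in the 3 comparisons (horizontal axis). Mt2 is above 0 in all 4 sets of Dil minus WT, from 0.62 to 1.70, and Gstm7 below 0 in all 4, from -0.91 to -0.19, with sets 3 and 4 farther from 0 than sets 1 and 2 in both.

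The 5 measured glutathione transferases were Gsta4 of the alpha class, Gstm4, Gstm5 and Gstm7 of the mu class and Gsto1 of the omega class. Of these 5, 1 fell and 0 rose in Dil minus WT, beside 1.15% of all features called lower and 1% called higher. Their median was -0.28. On the direct arrays of WT and Dil Gstm7 had log2 ratios of -0.30, -1.09 and -0.59 in sets 1, 3 and 4, and on those of Hyp and Dil -0.46, -0.18, -0.49 and -0.95 in sets 1 to 4. The arrays of WT and Hyp of sets 2, 3 and 4 gave -0.14, -0.06 and -0.42. All 10 arrays with a value were below 0, and the ratios of WT and Hyp overlapped those of WT and Dil. Gstm7 fell by 0.64 ± 0.14 on the log2 scale in Dil minus WT (1.56-fold lower, limma adjusted p = 0.0435), with -0.19, -0.32, -0.91 and -0.85 in sets 1 to 4. It was at -0.49 ± 0.13 in Dil minus Hyp (limma adjusted p = 0.208) and at -0.16 ± 0.14 in Hyp minus WT (limma adjusted p = 0.999). The call was lost without set 2 (-0.68, limma adjusted p = 0.0713), without set 3 (-0.52, 0.384), without set 4 (-0.58, 0.299), after scaling the arrays to one spread (-0.51, 0.0634), from direct arrays alone (-0.64, 0.211) and with the replicate block (-0.57, 0.155).

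Gstm5 lay below 0 as well, on a smaller scale. Its direct ratios of WT and Dil were -0.38, -0.25 and -0.31 in sets 1, 3 and 4, and those of Hyp and Dil -0.03, -0.26, -0.48 and -0.07. These 7 arrays with a dilated heart were all below 0, and the 3 ratios of WT and Dil lay below the ratios of WT and Hyp, which ran from -0.12 to 0.02. The fitted change in Dil minus WT was -0.31 ± 0.08 (limma adjusted p = 0.0765). Gstm5 passed in 3 alternatives, none of them firmer than the main fit. With the column of WT and Hyp of set 1 as deposited (limma adjusted p = 0.0492), the displaced rows put the ratio of another spot under Gstm5. With arrays taken as independent (limma adjusted p = 0.0499), the shared mice are ignored. The array of Hyp and Dil of set 1 was left out (limma adjusted p = 0.0277) only after the data were seen. Gsta4, which conjugates lipid aldehydes such as 4-hydroxynonenal, was at -0.28 ± 0.12 (limma adjusted p = 0.249), and Gstm4 was at -0.07 ± 0.08 (limma adjusted p = 0.756). Gstm5, Gstm7 and other mu-class genes lie side by side on mouse chromosome 3 and are similar in sequence, so a clone of one may also bind transcripts of another, which these data do not resolve.

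Gsto1, whose product reduces dehydroascorbate and methylated arsenic, stood on the other side. Its log2 ratio on the arrays of Hyp and Dil was 0.34, 0.28, 0.21 and 0.14 in sets 1 to 4, and on those of WT and Dil 0.37, 0.39 and 0.18. On the arrays of WT and Hyp it was -0.13, -0.39, -0.02 and -0.19. The 7 arrays with a dilated heart were all above 0 and the 4 without one all below 0. The fitted change was 0.31 ± 0.08 in Dil minus Hyp (1.24-fold, limma adjusted p = 0.165), 0.19 ± 0.08 in Dil minus WT (limma adjusted p = 0.249) and -0.11 ± 0.08 in Hyp minus WT (limma adjusted p = 0.999), so it did not pass in any of the 3.

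The superoxide dismutases had the next lowest values after Gstm7 and Txnip in Dil minus WT, and neither passed. Sod1, the copper and zinc enzyme of the cytosol, was at -0.43 ± 0.10 (limma adjusted p = 0.0631) and Sod2, the manganese enzyme of mitochondria, at -0.45 ± 0.14 (limma adjusted p = 0.136). The arrays of both genes differed by dye. For Sod1 the direct ratios of WT and Dil were 0.07 and 0.23 in sets 1 and 3, with the dilated heart in Cy5, and -1.13 in set 4, with it in Cy3. For Sod2 they were 0.27, -0.30 and -1.18 in the same order. The fitted dye effect was 0.41 for Sod1 and 0.32 for Sod2, and without a dye term the change of Sod1 was -0.34 (limma adjusted p = 0.428). The ratios of WT and Hyp of Sod1 were -0.13, -0.80, -0.30 and -0.05 in sets 1 to 4, all below 0, and its change in Hyp minus WT was -0.32 ± 0.10 (limma adjusted p = 0.977). The ratios of Hyp and Dil of Sod1 were -0.40, 0.14, -0.61 and 0.42, with the dilated heart in Cy3 on the 2 negative ones, and the change was -0.11 ± 0.10 (limma adjusted p = 0.857). For Sod2 the ratios of WT and Hyp were 0.38, -0.52, -0.27 and -0.18 and those of Hyp and Dil -0.34, 0.45, -0.86 and -0.32, on both sides of 0. Sod2 was at -0.17 ± 0.14 in Hyp minus WT and -0.29 ± 0.14 in Dil minus Hyp. In Dil minus WT its sets 3 and 4 (-0.57 and -0.96) were lower than sets 1 and 2 (-0.02 and -0.07).

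Catalase (Cat), which splits hydrogen peroxide in peroxisomes, was at 0.11 ± 0.13 in Dil minus WT, -0.20 ± 0.12 in Hyp minus WT and 0.31 ± 0.12 in Dil minus Hyp (limma adjusted p = 0.736, 0.999 and 0.414). Its direct ratios were -0.18, 0.18 and 0.45 for WT and Dil in sets 1, 3 and 4, -0.81, -0.18, 0.06 and -0.07 for WT and Hyp in sets 1 to 4, and 0.75, 0.18, -0.02 and 0.12 for Hyp and Dil, so the ratios overlapped. In the last comparison its set values were 0.63, 0.30, 0.03 and 0.25, all above 0. In Hyp minus WT set 1 stood at -0.69 and the others between -0.30 and 0.10.

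Among the glutathione peroxidases, which use glutathione to reduce peroxides, 0 of 4 passed in any comparison, and the median in Dil minus WT was 0.20. Gpx1, the enzyme of cytosol and mitochondria, had direct ratios of WT and Dil of 0.12, 0.08 and 0.39 in sets 1, 3 and 4, those of Hyp and Dil were 0.21, -0.08, 0.43 and 0.24 in sets 1 to 4 and those of WT and Hyp -0.07, 0.16, 0.03 and 0.05. All 3 direct arrays of WT and Dil were above 0, though they overlapped those of WT and Hyp. Its change was 0.23 ± 0.06 in Dil minus WT (limma adjusted p = 0.101) and 0.19 ± 0.06 in Dil minus Hyp (limma adjusted p = 0.291). The spots of Gpx1 disagreed in size: the first gave 0.10 ± 0.10 and the second 0.36 ± 0.10 in Dil minus WT. Gpx4, which reduces lipid hydroperoxides in membranes, was at 0.29 ± 0.15, with its values spread from -0.34 in set 2 to 0.75 in set 4. Its direct ratios were 0.22, 0.30 and 0.65 for WT and Dil and -0.21, -0.16 and 0.81 for WT and Hyp of sets 2, 3 and 4, with both arrays of WT4 high, and 0.41, -0.13, -0.03 and 0.15 for Hyp and Dil. Gpx3, the secreted enzyme, was at -0.01 ± 0.07, with direct ratios of 0.01, -0.32 and 0.15 for WT and Dil, -0.02, 0.11 and 0.03 for WT and Hyp and 0.03, -0.04, -0.01 and 0.03 for Hyp and Dil. Gpx8 of the endoplasmic reticulum was at 0.18 ± 0.21. In Hyp minus WT the 4 genes lay between 0.00 and 0.16.

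Of the 2 enzymes that make glutathione, 0 passed in any comparison. Gclc, the catalytic subunit of glutamate-cysteine ligase, was at 0.09 ± 0.06 in Dil minus WT, -0.02 ± 0.05 in Hyp minus WT and 0.11 ± 0.05 in Dil minus Hyp. Gss, glutathione synthetase, was at 0.12 ± 0.08, -0.05 ± 0.08 and 0.18 ± 0.08 in the same order. The direct ratios of Gclc were -0.17, 0.06 and 0.33 for WT and Dil, -0.25, 0.11, 0.17 and -0.18 for WT and Hyp and 0.20, -0.14, 0.25 and 0.07 for Hyp and Dil. Those of Gss were -0.01, 0.14 and 0.47, -0.12, -0.08, -0.01 and -0.26, and -0.03, 0.00, 0.22 and 0.26. For Gclc the 3 kinds of array overlapped. For Gss, as the mean of its 2 spots, the ratios of WT and Hyp all lay below those of WT and Dil, the nearest pair being -0.0075 and -0.0052. Those of Hyp and Dil overlapped both. On each Gss spot alone, the ratios of WT and Hyp overlapped those of WT and Dil. The spots disagreed: the first gave -0.03 ± 0.12 and the second 0.28 ± 0.10 in Dil minus WT. On the array of WT and Hyp of set 4 they read -0.82 and 0.30. The 95% interval of Gclc in Dil minus WT ran from -0.03 to 0.22.

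The peroxiredoxins, which reduce hydrogen peroxide with electrons from thioredoxin, had 0 of 4 past the test. Prdx3, the mitochondrial member, was at -0.26 ± 0.14 in Dil minus WT (limma adjusted p = 0.389), and its direct ratios were -0.46, -0.29 and -0.61 in sets 1, 3 and 4. Its ratios of WT and Hyp were -0.38, 0.12, -0.06 and 0.33 and those of Hyp and Dil 0.30, -0.01, -0.18 and -0.15 in sets 1 to 4, on both sides of 0. Prdx1 and Prdx2 of the cytosol were at -0.03 ± 0.13 and -0.12 ± 0.18, and Prdx4 of the endoplasmic reticulum at 0.01 ± 0.15. Prdx1 had direct ratios of -0.31, -0.02 and -0.18 for WT and Dil, -0.28, 0.17, 0.06 and 0.40 for WT and Hyp and 0.50, -0.19, -0.09 and 0.08 for Hyp and Dil. In set 1 all 4 peroxiredoxins were below 0 in Hyp minus WT, from -0.55 to -0.43, whereas in the other sets they lay between -0.17 and 0.22.

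The thioredoxins Txn1 of the cytosol and Txn2 of mitochondria were close to 0 in Dil minus WT (0.01 ± 0.12 and 0.04 ± 0.14) and in Hyp minus WT (-0.01 ± 0.12 and 0.11 ± 0.13). The direct ratios of Txn1 were 0.10, 0.30 and -0.05 for WT and Dil, -0.15, -0.17, 0.00 and 0.21 for WT and Hyp and -0.02, -0.44, -0.01 and 0.50 for Hyp and Dil, and those of Txn2 were -0.13, -0.34 and 0.46, -0.05, 0.08, -0.20 and 0.63, and 0.02, 0.24, -0.05 and -0.47. Both genes had ratios on either side of 0 on every kind of array. Txnip, the protein that binds and inhibits thioredoxin and also restrains glucose uptake, varied more than the other genes of its role. On the arrays of WT and Hyp its log2 ratio was -1.94, -0.50, -1.19 and 0.35 in sets 1 to 4. On those of WT and Dil it was -0.96, -0.18 and -0.80 in sets 1, 3 and 4, and on those of Hyp and Dil 0.78, 0.49, -0.33 and 0.15. In set 1 it was low in both carriers relative to the same WT mouse. Low values in the carriers and a high value in that mouse cannot be told apart. The arrays of WT and Hyp spread over both sides of 0. The fitted change was -0.85 ± 0.27 in Hyp minus WT (limma adjusted p = 0.977), -0.62 ± 0.28 in Dil minus WT (limma adjusted p = 0.309) and 0.24 ± 0.27 in Dil minus Hyp (limma adjusted p = 0.891). Without set 1 it was -0.33 in Hyp minus WT, and with the array of WT and Hyp of that set left out it was -0.63.

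The glutaredoxins and methionine sulfoxide reductases, which repair oxidised cysteine and methionine, held 0 genes past the test. Glrx of the cytosol was at -0.32 ± 0.16 in Dil minus WT (limma adjusted p = 0.344) with all 4 sets below 0, from -0.43 to -0.21. Glrx5, a mitochondrial protein of iron-sulfur cluster assembly, was at -0.20 ± 0.08 (limma adjusted p = 0.264), and its direct ratios were 0.38 and 0.30 with the dilated heart in Cy5 and -0.64 with it in Cy3. Glrx3 was at -0.03 ± 0.09. Of the reductases, Msrb1 was at 0.26 ± 0.12, Msrb3 at 0.16 ± 0.10 and Msra at -0.03 ± 0.07 in Dil minus WT.

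Hmox1, the inducible heme oxygenase and a widely used readout of NRF2, was at 0.30 ± 0.15 in Dil minus WT (limma adjusted p = 0.349) and 0.27 ± 0.14 in Hyp minus WT (limma adjusted p = 0.999). In Dil minus WT its values were -0.03, -0.04, 0.27 and 0.82 in sets 1 to 4. Its direct ratios of WT and Dil were -0.15, 0.21 and 0.84, and those of WT and Hyp -0.27, 0.59, 0.29 and 0.39, so they overlapped. Those of Hyp and Dil were 0.17, -0.63, 0.11 and 0.41. Hmox2, the constitutive form, was at -0.07 ± 0.06 in Dil minus WT and -0.08 ± 0.05 in Hyp minus WT. Its direct ratios were -0.04, -0.23 and -0.02 for WT and Dil, -0.13, 0.01, -0.02 and -0.18 for WT and Hyp and 0.19, -0.23, 0.08 and 0.01 for Hyp and Dil, none farther than 0.23 from 0.

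**Figure D3:**
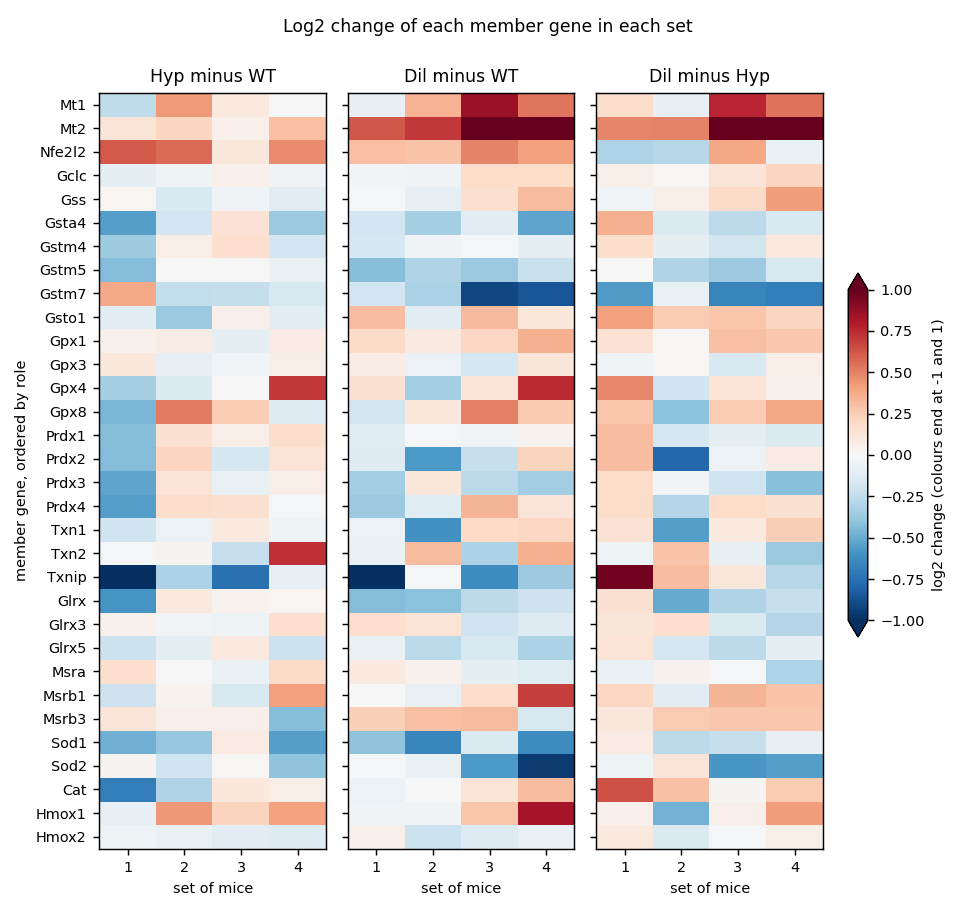
Log2 change (colour, ending at -1 and 1) of the 32 genes (rows, ordered by role) in each of the 4 sets of mice (columns) in the 3 comparisons. The dark red cells of Mt2 in sets 3 and 4 of Dil minus WT (1.70 and 1.51) and the dark blue cells of Gstm7 (-0.91 and -0.85) stand beside rows such as Hmox2 that stay pale in all sets.

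Nfe2l2 encodes NRF2, which activates many of the genes above. As the mean of its 4 spots it was at 0.45 ± 0.10 in Hyp minus WT (limma adjusted p = 0.871, the smallest unadjusted p of the 32 genes in that comparison), 0.39 ± 0.10 in Dil minus WT (limma adjusted p = 0.0829) and -0.06 ± 0.10 in Dil minus Hyp. The mean rested on 1 spot. The third spot gave 1.32 ± 0.32 in Hyp minus WT and 1.36 ± 0.34 in Dil minus WT, while the other spots lay between 0.09 and 0.24 and between -0.01 and 0.11. In the order of the spots, the third spot stands next to a spot of Agt, the gene that this line overexpresses, for which none of the 11 arrays holds a value. On the arrays of WT and Hyp the third spot read 2.14, 0.76, 0.04 and 2.38 in sets 1 to 4, and the Agt spot with values, which lies elsewhere, read 1.83, -0.24 and 3.60 in sets 2, 3 and 4. On those of WT and Dil the third spot read 1.56, 1.68 and 1.15 and Agt 2.61, 2.28 and 2.46. On those of Hyp and Dil they read -0.64, -0.06, 1.53 and -0.65 against -0.86, 0.64, 0.58 and -0.64. The third spot was thus high where Agt was high on the arrays with a WT heart, and near 0 in set 3 of WT and Hyp, where Agt was too. On the array of WT and Hyp of set 2, however, the third spot did not stand apart. There the first and second spots, which are not next to Agt, read 0.63 and 0.72, and the fourth read 0.08. What part the neighbouring Agt spot has in the values of the third spot was not tested. Without the third spot Nfe2l2 was at 0.16 ± 0.09 in Hyp minus WT and 0.06 ± 0.09 in Dil minus WT (limma adjusted p = 0.999 and 0.789).

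**Figure D4:**
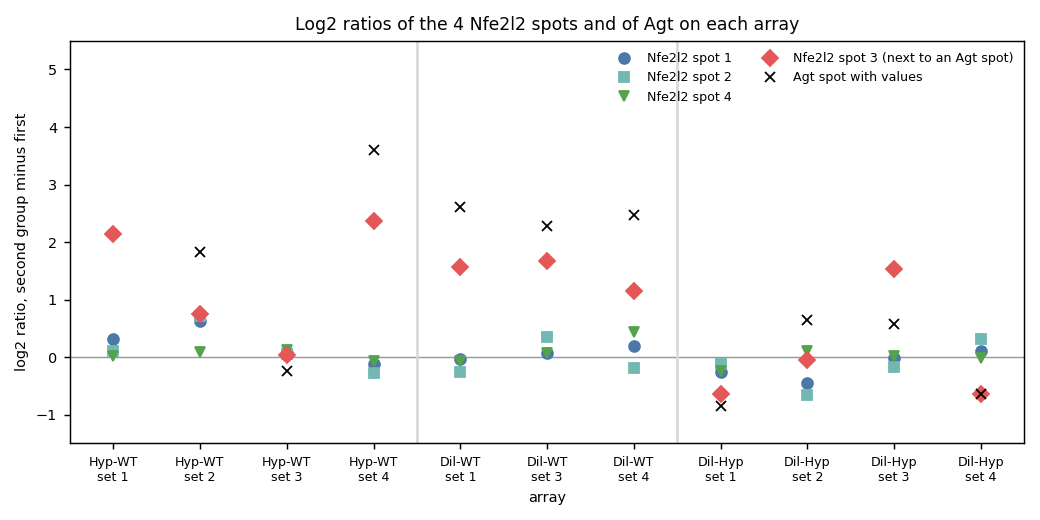
Log2 ratio (vertical axis, second-named state over first, without dye correction) of the 4 Nfe2l2 spots and of the Agt spot with values on each of the 11 arrays (horizontal axis). The third Nfe2l2 spot (red) reaches 2.14 and 2.38 in sets 1 and 4 of WT and Hyp while the other Nfe2l2 spots stay at or below 0.32 there. In set 2 of WT and Hyp the first and second spots (0.63 and 0.72) lie close to the third (0.76).

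Hypertrophic and WT hearts were compared to find what accompanies hypertrophy without dilatation, and 0 of the 32 genes passed, beside 0% of all features. By limma's unadjusted p under 0.05, which 533 features reached, 1 gene lay on the higher side, Nfe2l2, and 2 on the lower side, Sod1 and Txnip, beside 4.41% of all features (2.43% higher and 1.98% lower). The median of the 32 genes was -0.04, with 12 above and 20 below 0, and that of all features was 0.00. The medians by set were -0.20, 0.00, 0.04 and -0.01. The comparison of Dil with Hyp hearts asks what separates the phenotypes among carriers. Again 0 of the 32 genes passed, beside 0.165% of all features (0.141% higher and 0.0248% lower). At an unadjusted p under 0.05 there were 7 on the higher side (Mt1, Mt2, Gss, Gsto1, Gpx1, Msrb3 and Cat) and 2 on the lower side (Gstm5 and Gstm7), beside 9.64% of all features (5.27% higher and 4.37% lower). The median was 0.00, with 16 above and 16 below 0. The 3 comparisons share mice and arrays, so their values for a gene are not independent of each other.

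Other genes of the same pathways were taken from lists that complete the NRF2 response, NADPH supply, oxidant sources, metal handling and further glutathione and thioredoxin-fold proteins. Of the 12 measured NRF2 partners and other targets, 1 rose in Dil minus WT, beside 1% of all features called higher. It was Sqstm1, the autophagy receptor p62 that binds the NRF2 repressor KEAP1, at 0.58 ± 0.11 (limma adjusted p = 0.0254) with 0.54, 0.20, 0.50 and 0.90 in sets 1 to 4. Its call was lost without set 1 (0.60, limma adjusted p = 0.0825), without set 3 (0.63, 0.250), without set 4 (0.44, 0.153), from direct arrays alone (0.83, 0.0813) and with the replicate block (0.53, 0.124). The median of that list was 0.13. Bach1, a repressor at antioxidant response elements, was at -0.34 ± 0.09 (limma adjusted p = 0.0861). The ferritin chains lay on both sides of 0, with Ftl1 at 0.27 ± 0.09 and Fth1 at -0.31 ± 0.12 (limma adjusted p = 0.151 and 0.226). No gene passed among 7 of NADPH supply (median -0.02), 6 sources of superoxide and peroxide (0.10), 14 of zinc and copper handling (0.06), 9 other glutathione enzymes (-0.03) and 19 thioredoxin-fold and selenium proteins (0.03). At an unadjusted p under 0.05 by limma's test, 8.09% of all features lay higher and 8.15% lower. The NRF2 list held 3 genes on the higher side and 2 on the lower side. The other lists held, in the order above, 0, 2, 1, 1 and 2 genes on the higher side and 1, 2, 0, 2 and 1 on the lower side. With the smallest p of these lists, Idh1, the NADPH-making isocitrate dehydrogenase of the cytosol, was at -0.30 ± 0.09 and Pgd, of the pentose phosphate pathway, at 0.15 ± 0.08 (limma adjusted p = 0.0993 and 0.423). Maoa, a hydrogen peroxide-forming monoamine oxidase, was at 0.45 ± 0.13 and Xdh, xanthine dehydrogenase, at -0.36 ± 0.14 (limma adjusted p = 0.114 and 0.219). The zinc transporter Slc30a2 was at 0.15 ± 0.06 and the metal importer Slc39a14 at 0.24 ± 0.12 (limma adjusted p = 0.274 and 0.349). Mtf1, the factor that acts on metal response elements, was at 0.19 ± 0.14 (limma adjusted p = 0.585). The microsomal glutathione transferase Mgst3 was at -0.51 ± 0.14, between -0.53 and -0.46 in all 4 sets, and Esd, an esterase of glutathione-dependent formaldehyde breakdown, was at 0.32 ± 0.12 (limma adjusted p = 0.0958 and 0.208). The protein disulfide isomerase Txndc5 and the selenoprotein Selenof were at 0.46 ± 0.14 and 0.29 ± 0.09 (limma adjusted p = 0.135 and 0.144). In Hyp minus WT and in Dil minus Hyp 0 genes of these 6 lists passed. By limma's unadjusted p under 0.05 the 6 lists, NRF2 first, held in Hyp minus WT 0, 0, 0, 1, 0 and 4 genes higher. Lower were 0, 2, 1, 0, 0 and 1, beside 2.43% of all features higher and 1.98% lower. In Dil minus Hyp 2, 1, 0, 1, 1 and 0 genes lay higher and 1, 0, 0, 1, 1 and 1 lower. There 5.27% of all features lay higher and 4.37% lower.

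Several measures moved with the sets in which Mt2 and Gstm7 stood farthest from 0. The spread of log2 ratios over all spots (the median absolute deviation, scaled) was 0.172 on the array of WT and Dil of set 1 but 0.335 and 0.354 on those of sets 3 and 4. The median of 8 measured fibroblast markers in Dil minus WT was -0.12, -0.01, 0.44 and 0.36 in sets 1 to 4 (fitted values from -0.20 for Pdgfra to 0.62 for Col3a1, 6 above and 2 below 0, median 0.21), and that of 3 macrophage and leukocyte markers was -0.03, -0.03, 0.21 and 0.66. The 4 smooth muscle markers had a median of -0.24 (-0.13, -0.03, -0.26 and -0.33 in sets 1 to 4) and the 4 endothelial markers -0.02 (0.06, 0.13, -0.08 and -0.16). The 5 adipocyte markers had -0.06 (-0.24, 0.115, -0.01 and -0.05) and the 4 hepatocyte markers -0.04 (-0.03, 0.09, 0.12 and -0.01). The 2 erythrocyte markers had 0.22 (0.47, 0.05, 0.13 and 0.15) and the 1 lymphocyte marker 0.20 (-0.08, 0.05, 0.19 and 0.42). None of these markers passed in Dil minus WT. Of 15 cardiomyocyte markers 3 were measured (median 0.08, fitted values from -0.33 to 0.46). Their medians in sets 1 to 4 were 0.18, -0.10, 0.12 and 0.05, which did not set sets 3 and 4 apart. Of 4 atrial markers 0 were measured, so the tissue could be checked against few of its own genes. Ratios give no level of a gene in a tissue, so the share of each cell type is unknown. The part of cell composition and of array spread in the changes of Mt2 and Gstm7 was not tested, except that after scaling the arrays to one spread Mt2 was at 0.93 (limma adjusted p = 0.00716) and Gstm7 at -0.51 (limma adjusted p = 0.0634).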

How the data were processed

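Per the labels' protocols, 25 µg of total RNA per channel was copied into cDNA with Cy3- or Cy5-labelled nucleotides. The authors deposited 1 ratio per spot and array, taken here to be on the log2 scale. Its log base, direction, scanner, background correction and normalization are not given in the sources. The numerator was taken as Cy5. Were the scale a natural logarithm, folds would be too small. Spot brightness was not used, and the number of arrays limits the precision.

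On the array of WT1 and Hyp1, 24 of 24 blocks matched set 1 best at 8 blocks' distance (correlations 0.504 to 0.745, the next best place at most 0.219). The 11520 spots that followed this shift were moved back, and 3840 spots (21.7%) were left without a value. Spots were named through the platform annotation and averaged per gene, and a feature needed a value on 9 of 11 arrays. Ratios were fitted by generalised least squares (mice as random effects, variance ratio 0.303) and moderated in R 4.3.3 with limma 3.58.1, whose prior had 3.26 degrees of freedom. Residual degrees of freedom were counted over arrays although arrays share mice, so p-values may be too small. The procedure was run on data simulated from the fitted model itself, which cannot show whether the model's assumptions hold for these arrays.

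The genes and lists were chosen with earlier results of these data known. Array values are given for genes named in a list, genes past the threshold and the 3 with the smallest p in each comparison. Companion lists name the genes past the threshold or the 2 with the smallest p in Dil minus WT. Mtf1, the ferritins, Bach1 and the ends of the fibroblast range were added after their values were seen. Alternatives changed the treatment of the WT1 and Hyp1 column, the dye term, the dependence between arrays, scaling, centring, spot averaging, filters, moderation and the arrays and sets used. Mice with the same number always share arrays, so whether numbers pair mice could not be checked apart from the arrays. Sequences are from RefSeq's mouse promoter table (GRCm38.p6).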

Additional observations from a re-analysis of the deposited data

Results flagged for a closer look

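In each gene and comparison, the gap between the highest or lowest of the 4 set values and its nearest neighbour was divided by the range of the 4 (Dixon's criterion). Of the 96 groups of 4 values, 9 had such a set, and chance gives about 1 in 20. In Hyp minus WT, set 1 stood apart for Gstm5 (-0.43, the others from -0.06 to 0.00), Gstm7 (0.38, the others from -0.24 to -0.16) and Glrx (-0.59, the others from 0.02 to 0.10). Gstm5 and Gstm7 have no value on the direct array of that set, so these set values come from the other arrays of its mice. Set 4 stood apart for the methionine sulfoxide reductase Msrb3 (-0.43, the others from 0.05 to 0.13). In Dil minus WT, Prdx3 stood at 0.12 in set 2 (the others from -0.35 to -0.27), a set without a direct array here, and Msrb3 at -0.16 in set 4 (the others from 0.24 to 0.32). In Dil minus Hyp, Prdx1 stood at 0.31 in set 1 (the others from -0.17 to -0.09), Prdx4 at -0.29 in set 2 (the others from 0.15 to 0.19) and Msrb3 at 0.11 in set 1 (the others from 0.25 to 0.27). None of the 9 belongs to a comparison in which the gene passed the test.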

How the results depend on the processing

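In Dil minus WT 260 features and 2 of the 32 genes passed. The counts were 159 features with the array of WT1 and Hyp1 left out, 99 features and 1 gene (Mt2) after scaling the arrays to one spread, 1 gene with a value on all 11 arrays required, 7 features and 0 genes from direct arrays alone, 6 features and 0 genes with the replicate block, and 448 features with the array of Dil1 and Hyp1 left out. With a value on all 11 arrays required, Gstm7 was not tested, since it has none on the array of WT1 and Hyp1. Without 1 set the counts ran from 0 (without set 3) to 121 features and from 0 to 2 genes. At an unadjusted p under 0.05, limma gave 1334 features without set 3 and 1965 with all sets. In Dil minus Hyp 20 features and 0 genes passed. The counts were 41 features and 1 gene with the WT1 and Hyp1 column as deposited, 7 features with that array left out, 43 without a dye term, 52 features and 1 gene with arrays taken as independent, 1 gene with arrays scaled and 1 with a value on all 11 arrays required, 0 features from direct arrays alone and with the replicate block, and 49 features and 1 gene with the array of Dil1 and Hyp1 left out. Without 1 set they ran from 0 to 15 features. The gene was Mt2 each time. In Hyp minus WT 0 features passed under every alternative tried. Of the values of single genes under the alternatives, 0 changed sign in a called result, 10 lost and 8 gained the threshold, and the cause was not tested. Leaving out the array of Dil1 and Hyp1, or the Nfe2l2 spot next to Agt, was chosen after seeing the data. Signal over background is unknown here, so no limit by brightness can be given.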
